A study of Mus musculus with 6 samples.

Results

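The miR-297, miR-466, miR-467 and miR-669 families, most of which are encoded in 1 intron of the mouse gene Sfmbt2, were followed in inflamed mouse pancreas. Members were taken from the miRNA names alone: every row of the count table named miR-297, miR-466, miR-467 or miR-669 with 1 letter after the number, whatever the locus number or arm. This gave 65 of the 1077 rows. Rows with identical counts in all 6 libraries were counted once, which left 49 distinct rows. Small RNA was sequenced from pancreas with pancreatitis in 3 libraries of control mice and 3 libraries of mice with high blood triglycerides, the group titled HTG and called so here. All 6 libraries thus came from pancreatitis tissue. The sources used here do not give strain, age, how pancreatitis and the raised triglycerides were brought about, or whether each library is another animal. P-values therefore rest on differences among these 6 libraries that may be technical.

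MiRNAs are short RNAs cut from hairpin precursors, and they repress messenger RNAs mainly through pairing of bases 2 to 8, the seed. Sfmbt2 encodes a Polycomb-group protein that acts in chromatin repression. The gene is imprinted in mouse and expressed from the paternal copy, and it is best known from trophoblast and placenta. The miRNAs of its intron lie in tandem repeats, and several hairpins give the same mature sequence. Of single members, miR-467b has been reported to target lipoprotein lipase, the enzyme that clears triglycerides from blood, in mouse macrophages. MiR-669a has been reported to restrain the myogenic factor MyoD in mouse heart progenitors, and miR-466h-5p to promote apoptosis in mouse cells.

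In the GENCODE M21 annotation of GRCm38, the genome build named in the submitters' processing notes, 81 hairpin genes carried these family names. Of these, 71 lay within Sfmbt2 on its strand (chromosome 2, 10370510 to 10595253, + strand), and 0 of the 71 overlapped a Sfmbt2 exon. They spanned 51.6 kb, from Mir466m at 10466663 to Mir669h at 10518279, inside 1 intron of 62472 bp (10461473 to 10523944). In transcript ENSMUST00000041105.6 this intron separates exons 10 and 11. The intron held 29 hairpins of miR-669, 23 of miR-466, 14 of miR-467 and 5 of miR-297, with a median distance of 298 bp between the starts of neighbouring hairpins. The largest sets of like-named hairpins were Mir669a with 12 copies, Mir467a with 10 and Mir466b with 8. Another 10 hairpins lay outside Sfmbt2.

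**Figure D1:**
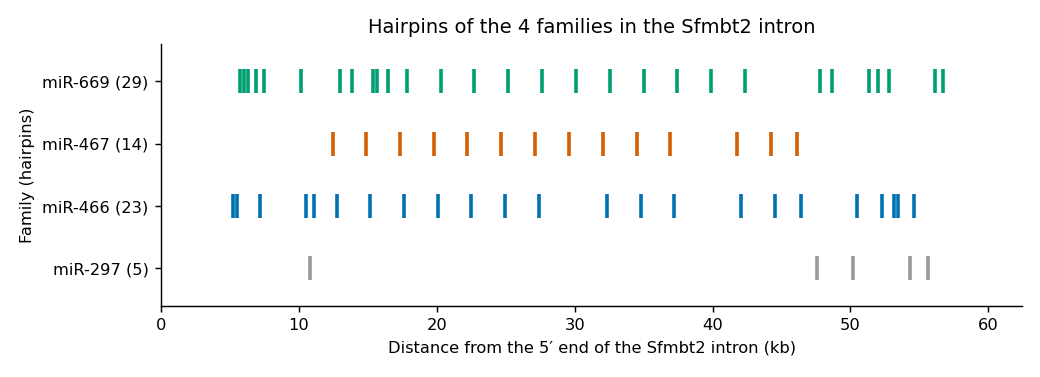
Positions of the 71 hairpins (ticks) along the 62472 bp intron of Sfmbt2 from GENCODE M21, by family, with the distance from the intron's 5′ end in kb on the x axis. MiR-467 hairpins (14) sit in the middle of the cluster among miR-466 (23) and miR-669 (29) hairpins, and 4 of the 5 miR-297 hairpins lie in its 3′ part.

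By name, 50 of the 65 member rows matched only hairpins of the intron, 5 matched hairpins both in the intron and outside it, and 8 matched only hairpins outside it. Both miR-466a rows matched no hairpin gene of that name. The 8 rows from outside the intron were miR-466i-3p, miR-466i-5p, miR-466j, miR-466k, miR-466q, miR-467g, miR-467h and miR-669n. A mature sequence was found for 7 of the 65 member rows in the RefSeq table (GRCm38.p6), all 7 of them from outside the intron. They are shown because they carry the family names but not the shared host gene. Among them, miR-466i-3p, miR-466q and miR-467g hold CA repeats. MiR-574-5p and miR-1187, which are no members and are built from UG repeats, are set beside them. Capitals mark the seed, bases 2 to 8:
miR-466i-3p: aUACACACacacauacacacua
miR-466j: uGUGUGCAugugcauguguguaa
miR-466k: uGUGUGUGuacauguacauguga
miR-466q: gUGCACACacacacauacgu
miR-467g: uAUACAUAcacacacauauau
miR-467h: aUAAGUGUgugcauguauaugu
miR-669n: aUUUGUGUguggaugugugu
miR-574-5p: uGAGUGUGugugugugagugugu
miR-1187: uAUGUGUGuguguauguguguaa

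These miRNAs come from chromosome 13 (miR-466i-3p, 17747552 to 17747573), chromosome 10 (miR-466j, 60960802 to 60960824), chromosome 3 (miR-466k, 85467396 to 85467418; miR-466q, 28419988 to 28420007; miR-669n, 115979905 to 115979924), chromosome 5 (miR-467g, 34732872 to 34732892, - strand) and chromosome 9 (miR-467h, 115381898 to 115381919), all but miR-467g on the + strand. No seed occurred in 2 of the 7 members. Among the other miRNAs of the count table with a RefSeq sequence, chromosome 18 left out, 1 shared a seed with them, miR-668-5p with miR-467h. The remaining member rows, with the abundant ones of the intron, had no sequence there. Their seeds could not be compared. In the 7 members, purines and pyrimidines alternated without a break over 8 bases in miR-669n and over 18 to 22 bases in the other 6. A run of at least 8 such bases was present in 57 of 1679 mature sequences of the RefSeq table, or 3.39%. The 1679 leave out chromosome 18. The limit of 8 is the shortest run of the members, so all 7 reach it. A run of at least 12 was present in 10, or 0.6%, and these 10 include the other 6 members and both UG-repeat miRNAs shown beside them.

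The rows from outside the intron were at or near the counting limit in these libraries. The 8 rows, each summed singly, had 7, 1 and 2 reads in control 1, 2 and 3, and 6, 1 and 5 reads in HTG 1, 2 and 3. MiR-466i-5p and miR-467g had identical counts, with 1 read in HTG 1, so that read may be entered for both. The 1 read of miR-466i-3p, in control 1, is also the count of the intron rows miR-669d-3p and miR-669l-3p. Of the 8 rows, miR-466j was the largest with 7 reads over all 6 libraries. All 4 reads of miR-669n came from HTG 3. Where no read was found, the level could still be as high as 0.137 to 0.387 CPM (counts per 1000000 counts) in a library, with 3 counts as the limit and counting error alone considered. The UG-repeat miR-574-5p, from chromosome 5 (64970328 to 64970350), was well above this limit. It stood at 80.2, 69.5 and 52.9 CPM in the controls and at 71.7, 75.1 and 62.0 CPM in HTG. MiR-1187 (chromosome 5, 82798964 to 82798986, - strand) had 4 reads in all, 1 in control 1 and 3 in control 2.

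The 6 libraries held between 6514498 and 19773579 counts, and the levels given here are CPM divided by the library's factor from the trimmed mean of M-values (TMM). Acinar markers (miR-148a-3p, miR-216a-5p, miR-216b-5p, miR-217-5p) were present in every library, at a summed 317900 to 527800 CPM. Across all rows of the table, 488 miRNAs passed the low-count filter of the test. The 49 distinct member rows were a small part of each library. They took 0.0139%, 0.00691% and 0.00673% of all counts in control 1, 2 and 3, and 0.0224%, 0.00465% and 0.0039% in HTG 1, 2 and 3.

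Only a minority of the rows carried more than a few reads. Of the 49, 19 had at least 1 read in all 6 libraries, 33 had fewer than 30 reads in all, and 19 had 10 or fewer. The 13 distinct rows that passed the filter stood for 22 of the 65 rows and held 90.9% of the counts of the distinct rows. Several of them joined members that could not be told apart: miR-466b-3p, miR-466c-3p and miR-466p-3p had 1 shared count, as had miR-297a-3p, miR-297b-3p and miR-297c-3p, and the pairs miR-466a-3p and miR-466e-3p, miR-669a-3p and miR-669o-3p, miR-669a-5p and miR-669p-5p, miR-467a-5p and miR-467b-5p, and miR-467a-3p and miR-467d-3p. The shared counts of miR-466a-3p and of miR-466b-3p differed from each other by at most 3 reads in a library, so these rows hold nearly the same reads. Identical rows of 1 read, such as those of miR-466i-3p, miR-669d-3p and miR-669l-3p, may be equal by coincidence.

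The summed level of the 49 rows was at its highest, within each group, in library 1. The values were 141.6, 71.0 and 60.8 CPM in control 1, 2 and 3 and 188.7, 52.7 and 43.1 CPM in HTG 1, 2 and 3. Control 1 and HTG 1 lay above the other 4 libraries, and HTG 2 and 3 lay below controls 2 and 3. The group means were 91.1 ± 44.0 CPM in the controls and 94.8 ± 81.5 CPM in HTG (standard deviation, SD, n = 3 each), a log2 ratio of 0.058. The difference between these means was thus far smaller than the spread within the groups. The ratio is that of arithmetic means, in which HTG 1 weighs most, so it need not equal the difference of mean log2 levels. The SD of the log2 levels within groups, pooled over both, was 0.937. The log2 ratio was 0.561 without control 1 and -0.903 without HTG 1, and without both libraries numbered 1 it was -0.372.

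**Figure D2:**
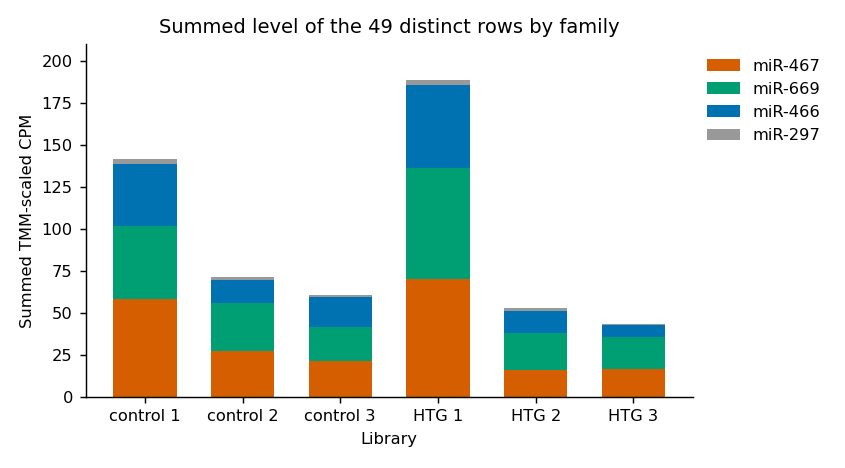
Summed TMM-scaled CPM of the 49 distinct member rows in each library, stacked by family. Control 1 (141.6) and HTG 1 (188.7) stand above the other 4 libraries (43.1 to 71.0), and miR-467, miR-669 and miR-466 make up nearly all of every bar.

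The make-up of the sum varied less than its size. MiR-467 gave 41.2%, 38% and 34.7% of the member counts in control 1, 2 and 3, and 37.1%, 29.9% and 38.7% in HTG 1, 2 and 3. MiR-669 gave between 30.8% (control 1) and 44.4% (HTG 3), and miR-466 between 16% (HTG 3) and 29.5% (control 3). The nearly equal counts of miR-466a-3p and miR-466b-3p both enter these sums, so the miR-466 share is overstated and the other shares understated. MiR-297 stayed between 0.998% and 2.81%. No family's share separated the groups.

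No member passed the test between HTG and control pancreatitis. EdgeR's quasi-likelihood test called 0 of the 13 tested distinct rows, with an adjusted p of 0.996 for each, against 0% of all 488 tested miRNAs. At an unadjusted p under 0.05 there were 0 members against 2.46% of all tested miRNAs, and the smallest unadjusted edgeR p of a member was 0.403. DESeq2, limma-voom and limma on log2(TPM + 1) also called 0 members, at 0 unadjusted each. The groups overlapped for all 13 rows, while 7.99% of all tested miRNAs did not overlap. Fitted log2 fold changes were above 0 for 7 of the 13 rows and below 0 for 6, where 49% of all tested miRNAs were above 0. The median was 0.144 for the members and -0.008 for all tested miRNAs, and the median of the members was -0.245 with the replicate number as a block. It was 0.563 without control 1 and -0.975 without HTG 1.

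**Figure D3:**
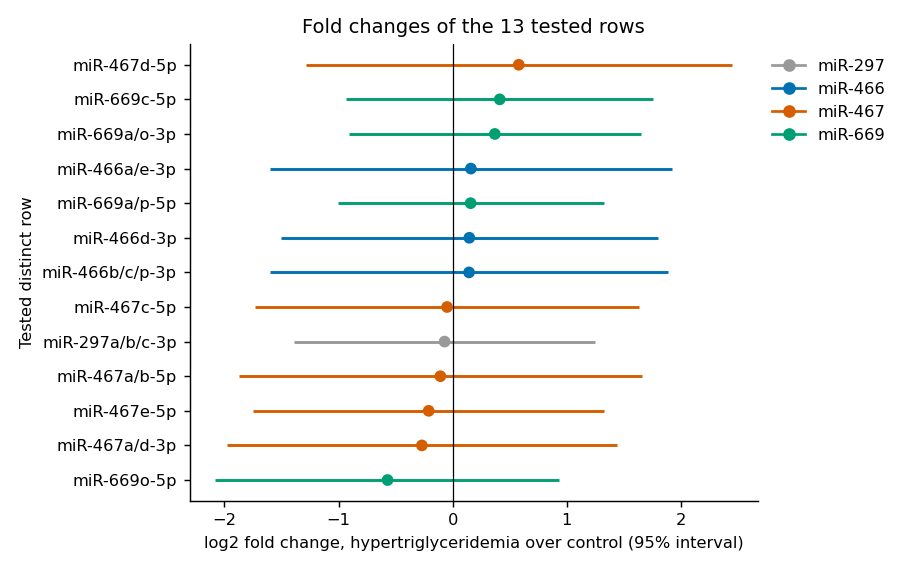
Fitted log2 fold changes of HTG over control (points) with 95% confidence intervals from edgeR (bars) for the 13 tested distinct rows, coloured by family. The values lie between -0.57 and 0.58, and every interval includes 0.

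The intervals were wide. Standard errors (SE) of the members' log2 fold changes ran from 0.499 to 0.799 with a median of 0.706, against a median of 0.289 over all tested miRNAs, and the 95% intervals of the 13 rows together reached from -2.08 to 2.45. Changes of up to several fold in either direction lay within these intervals. Counting error was smaller than the spread between libraries for the abundant rows. The 51 to 226 reads of miR-467e-5p gave exact Poisson 95% intervals of 22.4 to 29.3 CPM in control 1 and 4.08 to 7.21 CPM in HTG 3.

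The members largely shared 1 order over the libraries. For 12 of the 13 tested rows, both libraries numbered 1 lay above the other 4, as was so for 20.3% of all tested miRNAs. The exception was the shared count of miR-297a-3p, miR-297b-3p and miR-297c-3p. Among the 36 distinct rows under the filter, 14 had this order. Several of these rest on a few reads, such as miR-669m-3p with 3 and miR-466f-5p with 4 in all. The share over all miRNAs under the filter was not taken, so this count has nothing to be set against. HTG 1 was the highest library for 11 of the 13 rows. The lowest was HTG 3 for 8 rows and HTG 2 for 4. Since members share a host gene and in part reads, they are not independent observations of this order.

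**Figure D4:**
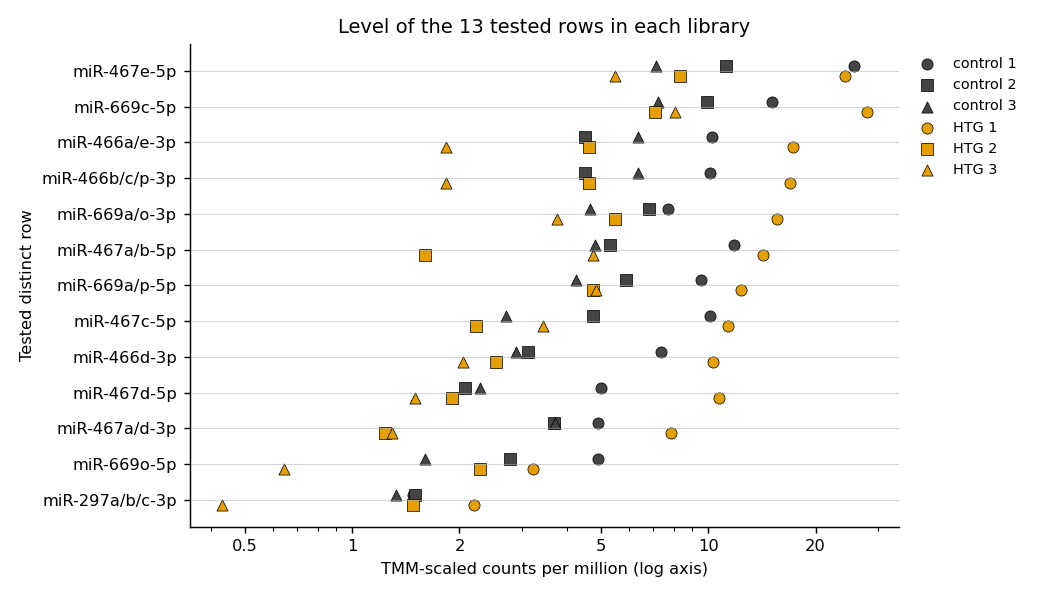
TMM-scaled CPM (log axis) of the 13 tested distinct rows in each library, with dark grey symbols for control and orange symbols for HTG (high blood triglycerides); circles, squares and triangles are the libraries numbered 1, 2 and 3. Circles lie to the right of squares and triangles in all rows but that of miR-297a, miR-297b and miR-297c, and grey and orange symbols overlap in all 13 rows.

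The miR-467 family held miR-467e-5p, the most abundant member by the mean over all 6 libraries, although miR-669c-5p was higher in control 3, HTG 1 and HTG 3. Its level was 25.7, 11.2 and 7.13 CPM in control 1, 2 and 3 and 24.3, 8.32 and 5.48 CPM in HTG 1, 2 and 3. The 2 libraries numbered 1 were nearly level, and the groups overlapped. The group means were 14.7 ± 9.75 and 12.7 ± 10.1 CPM (SD, n = 3 each), with a log2 fold change of -0.21 ± 0.66 (SE; adjusted p = 0.996 in edgeR).

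The shared count of miR-467a-5p and miR-467b-5p, the latter the member linked to lipoprotein lipase, was 11.8, 5.30 and 4.80 CPM in the controls and 14.2, 1.602 and 4.73 CPM in HTG. HTG 2 was the low one here, and the log2 fold change was -0.11 ± 0.75 (SE). MiR-467c-5p stood at 10.1, 4.73 and 2.69 CPM in the controls and at 11.4, 2.22 and 3.44 CPM in HTG (log2 -0.05 ± 0.72). MiR-467d-5p had the largest fitted value above 0, at 0.58 ± 0.80, from 5.0, 2.08 and 2.28 CPM in the controls and 10.7, 1.91 and 1.505 CPM in HTG. That value rested on HTG 1, without which it was -0.817.

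The 3p strand shared by miR-467a-3p and miR-467d-3p had the widest gap between the groups, of the 13 tested rows, once the libraries numbered 1 were set aside. It stood at 4.89, 3.69 and 3.70 CPM in the controls and at 7.88, 1.23 and 1.29 CPM in HTG, a log2 fold change of -0.27 ± 0.73. HTG 1 was above every control and HTG 2 and 3 were below every control. With the libraries numbered 1 set aside, a split looked at after the values were seen, the groups did not overlap for 4 of the 13 tested rows (this one, miR-467a-5p, miR-467d-5p and miR-466d-3p), against 48.2% of all tested miRNAs. Without HTG 1 the log2 fold change was -1.66 at an unadjusted edgeR p of 0.00476, which did not pass (adjusted p = 0.495), and without both libraries numbered 1 it was -1.46 (adjusted p = 0.229). MiR-467e-3p, the other strand of the miR-467e hairpin, was rare, at 0.341, 0 and 0.366 CPM in the controls and 0.904, 0.246 and 0.108 CPM in HTG.

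Of the miR-669 family, miR-669c-5p was the most abundant, at 15.1, 9.92 and 7.22 CPM in the controls and 27.9, 7.09 and 8.06 CPM in HTG. HTG 1 was far above the rest, and HTG 2 and control 3 were the lowest and nearly level. The means were 10.8 ± 4.01 and 14.3 ± 11.7 CPM (SD, n = 3 each), with a log2 fold change of 0.41 ± 0.58 (SE; adjusted p = 0.996 in edgeR) that was -0.469 without HTG 1. Its hairpin Mir669c lies at 10509296 to 10509404 on chromosome 2, and Mir467e at 10505721 to 10505807, so the 2 rows with the highest mean levels came from 1 hairpin each, both in the 3′ part of the cluster.

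The shared 3p strand of miR-669a-3p and miR-669o-3p stood at 7.73, 6.80 and 4.66 CPM in the controls and at 15.6, 5.49 and 3.76 CPM in HTG (log2 0.37 ± 0.55, SE). The shared 5p strand of miR-669a-5p, linked to MyoD, and miR-669p-5p was the steadiest of the rows above 2 CPM on average, with a highest level 2.92 times the lowest. It was 9.54, 5.88 and 4.25 CPM in the controls and 12.4, 4.75 and 4.84 CPM in HTG (log2 0.16 ± 0.50). MiR-669o-5p had the lowest fitted value of the 13, -0.57 ± 0.64, from 4.89, 2.77 and 1.599 CPM in the controls and 3.23, 2.28 and 0.645 CPM in HTG. It was 1 of the 2 rows in which control 1, not HTG 1, was the highest library.

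MiR-669d-5p, miR-669l-5p, miR-669p-3p and miR-669f-5p were among the 20 most abundant but did not pass the filter and were not tested. The first ranged from 0.370 CPM in HTG 2 to 2.58 CPM in HTG 1, and miR-669l-5p from 0.215 CPM in HTG 3 to 2.16 CPM in control 1. Both had the libraries numbered 1 on top. MiR-669p-3p (22 reads) and miR-669f-5p (29 reads) had another order, with their highest levels in HTG 2 (0.616 CPM) and control 3 (0.731 CPM).

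The miR-466 family was carried by 3p strands. The shared count of miR-466a-3p and miR-466e-3p had the widest range of the 13 tested rows, 10.2, 4.50 and 6.35 CPM in the controls and 17.3, 4.62 and 1.83 CPM in HTG. Its highest level was 9.46 times its lowest, which rested on 17 reads and an exact Poisson 95% interval of 1.06 to 2.93 CPM. The log2 fold change was 0.16 ± 0.76 (SE), and -1.07 without HTG 1. The nearly equal count of miR-466b-3p, miR-466c-3p and miR-466p-3p gave 0.14 ± 0.75.

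MiR-466d-3p stood at 7.39, 3.11 and 2.88 CPM in the controls and 10.3, 2.53 and 2.04 CPM in HTG (log2 0.15 ± 0.71). As for the other tested miR-466 rows, both libraries numbered 1 were high and the groups overlapped. Untested rows included miR-466g, with 16, 1 and 8 reads in control and 13, 4 and 1 in HTG, and miR-466n-3p, with 7, 1 and 0 reads and 9, 2 and 1. The apoptosis-linked miR-466h-5p had only 2 or 3 reads in every library. The shared count of miR-466d-5p and miR-466n-5p, chosen after its values were seen, had 11 and 6 reads in controls 1 and 2 and 0 in the other 4 libraries.

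MiR-297 was the rarest of the 4 families. The shared count of its 3p strands was 1.48, 1.499 and 1.32 CPM in control, the narrowest control range of the 13 rows, and 2.20, 1.48 and 0.430 CPM in HTG (log2 -0.07 ± 0.56, SE). It was also the tested row in which control 1 was not the highest control. By contrast, miR-297b-5p, also chosen after its values were seen, had 8 reads in control 1, 4 in HTG 1 and 0 in the other 4 libraries.

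Among the 13 tested rows, those with many hairpin copies were not the most abundant ones. The shared count of miR-669a-5p and miR-669p-5p drew on 14 hairpins of the intron and averaged 6.94 CPM over the 6 libraries. That of miR-467a-5p and miR-467b-5p drew on 11 and averaged 7.08 CPM. MiR-467e-5p and miR-669c-5p, with 1 hairpin each, averaged 13.7 and 12.6 CPM. The other tested rows with 1 matched hairpin of their own and no unmatched member were lower, from 5.76 CPM for miR-467c-5p to 2.57 CPM for miR-669o-5p. These are read counts of whole miRNAs with no length term. How reads matching several hairpins or miRNAs were counted is not given. A rule that drops or splits such reads would lower the rows with many copies, so the order cannot show the yield per hairpin.

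The arm with more reads differed between the families' sums. In miR-467 the summed 5p reads outnumbered the summed 3p reads in each library, by 4.16 (control 3) to 10.1 times (HTG 3). In miR-669 the ratio of summed 5p to 3p reads was 2.40 (HTG 2) to 4.12 (control 1), and 1.23 (HTG 1) to 2.35 (control 1) without miR-669c-5p, which has no 3p row in the table. In miR-466 the balance lay on the other side, with a ratio of 0.0395 (HTG 1) to 0.167 (control 1). The nearly equal counts of miR-466a-3p and miR-466b-3p both enter this 3p sum, so the ratio is too low. MiR-466a-3p alone still had more reads than the summed 5p rows in each library, with 17 against 8 in HTG 3. These directions of the sums held in all 6 libraries, and the ranges of the groups overlapped in each family. Single pairs of arms did not all follow their family. The ratio was 0.793 (HTG 1) to 1.29 (HTG 3) for miR-669a-5p over miR-669a-3p. For miR-669o-5p over miR-669o-3p it was 0.171 (HTG 3) to 0.632 (control 1). The groups overlapped for both of these. For miR-467d-5p over miR-467d-3p it was 1.02, 0.562 and 0.617 in control 1, 2 and 3. In HTG 1, 2 and 3 it was 1.36, 1.55 and 1.17, so the groups did not overlap. This was seen after the fact and was not tested. The share of arm pairs without overlap over the whole table was not taken. The 3p counts of these pairs are shared, that of miR-669a-3p with miR-669o-3p and that of miR-467d-3p with miR-467a-3p.

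The libraries in which the members were high were also those in which several blood-cell miRNAs were high. Of the 8 leukocyte markers, 6 had both libraries numbered 1 above the other 4, and 0 were at 0 in any library. Their summed level was 3461, 4577 and 2346 CPM in the controls and 6262, 1169 and 1397 CPM in HTG. Control 2 was the highest control of this sum, where miR-223-3p, the myeloid marker, reached 3510 CPM. MiR-150-5p, a lymphocyte miRNA, stood at 798, 66.2 and 103 CPM in the controls and 1726, 46.7 and 46.2 CPM in HTG. The 3 erythroid markers had the libraries numbered 1 on top in 3 of 3, at a summed 292.9 to 723.0 CPM in the controls and 363.7 to 848.7 CPM in HTG. Of all tested miRNAs, 20.3% had this order. Both lists hold the 2 arms of some hairpins, such as miR-142a, miR-150 and miR-144. Their rows are thus not independent observations.

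Other lists followed this order less fully. Of the 5 stellate and mesenchymal markers 2 did so (summed level 16650 to 60160 CPM in the controls and 19150 to 35690 CPM in HTG), of the 4 acinar markers 0, and of the 2 islet markers 0 (summed level 35880 to 43110 CPM in the controls and 37130 to 49020 CPM in HTG). Of 8 miRNAs of the imprinted Dlk1-Dio3 cluster 4 did so, but over a narrower span, from a summed 885.3 to 1179 CPM in the controls and 1024 to 1249 CPM in HTG. Of the 2 arms of miR-335, encoded in the imprinted gene Mest, 0 did so. EdgeR called 0 members of each of these lists. The part of other cells in the levels of the members was not tested, and in tissue RNA fewer cells of a type and less RNA per cell cannot be told apart.

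**Figure D5:**
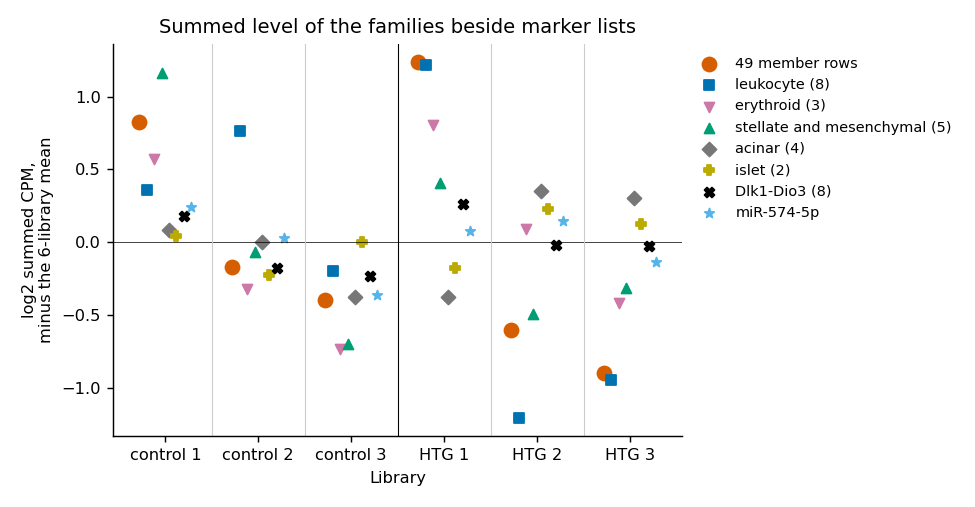
Log2 of the summed TMM-scaled CPM of the 49 member rows and of each marker list (number of miRNAs in brackets), and log2 CPM of miR-574-5p, each minus its mean over the 6 libraries. The member rows and the leukocyte list are closest in HTG 1 and HTG 3; the leukocyte list lies above the member rows in controls 2 and 3 and below them in control 1 and HTG 2, while acinar and islet lists show no rise in HTG 1.

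Outside the families, the tested miRNAs whose centred log2 levels lay closest to the summed member level were, in order, miR-433-5p, miR-3963, miR-3074-1-3p, miR-338-3p and miR-155-5p, with root mean square differences of 0.251 to 0.332 over the 6 libraries. MiR-155-5p, induced in activated leukocytes, stood at 109.8, 87.4 and 71.5 CPM in the controls and 196.1, 39.0 and 58.8 CPM in HTG. MiR-338-3p stood at 44.7, 13.7 and 9.32 CPM in the controls and 35.9, 10.2 and 10.4 CPM in HTG. None of the 5 passed the test between the groups (adjusted p = 0.996 in edgeR for each).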

How the data were processed

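Small RNA libraries of mouse pancreas with pancreatitis, 3 from control mice and 3 from mice with high blood triglycerides (HTG), were grouped by their titles. Trizol RNA and a NEXTflex small RNA kit were used, per the labels' protocols. The submitters' processing notes name Bowtie 1.1.1 and the genome build GRCm38. Trimming, the miRNA release, mismatches and how reads matching several miRNAs were counted are not given here. The deposited table gives whole-number counts per miRNA and library, and TPM values scaled by the authors to 1 total per library, as the file headers and values show, without a length term. The depth was 6514498 to 19773579 counts per library, and intervals cover counting error only.

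All 1077 rows entered the fit. Counts were filtered with filterByExpr (minimum count 10, minimum total 15), scaled by TMM and tested with edgeR 4.0.16 in R 4.3.3 (two-sided quasi-likelihood test, Benjamini-Hochberg adjustment over all 488 tested miRNAs, threshold 0.05), after a check on simulated data. Levels of tested miRNAs, centred on their group means, correlated between libraries of the same number (r = 0.47, 0.19 and 0.25 for numbers 1, 2 and 3). Every same-number r was over 0.1, and a fit with the replicate number as a block was among the alternatives. Unlike numbers 2 and 3 correlated as strongly (0.226 and 0.215), so only number 1 stood apart. Because of the centring, a deviation shared by the libraries numbered 1 itself raises r among numbers 2 and 3. These r thus cannot show that equal numbers are pairs. DESeq2 1.42.0, limma-voom, limma 3.58.1 on log2(TPM + 1), RLE scaling, library-size scaling, no filter, merged identical rows and fits without each library were alternatives. Where a set of identical rows is given, values are those of 1 row. The text names the 20 most abundant distinct rows, tested rows past the threshold, the 3 smallest p per direction, and the 5 nearest patterns. Members and lists were chosen with earlier results of these data known.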

Additional observations from a re-analysis of the deposited data

How the results depend on the processing

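In the 15 alternative fits 0 members were called, and the 195 fold changes of tested members under them held 8 changes of sign beyond the new SE. The count over all miRNAs was 1 without the low-count filter, 4 without both libraries numbered 1, 0 to 2 with 1 library left out (2 without control 1), and 0 in the other alternatives. With the replicate block, 0 miRNAs and 0 members were called, the members' median log2 fold change was -0.245, and 27 in place of 12 miRNAs had an unadjusted edgeR p under 0.05; it changed no other call. With 1 library left out, the members' median ran from -0.975 (without HTG 1) to 0.563 (without control 1), and the log2 ratio of the summed level from -0.903 to 0.561, with the same libraries at the ends. Over the same fits the log2 fold change ran from -0.469 to 0.777 for miR-669c-5p, from -1.068 to 0.622 for miR-466a-3p, from -1.061 to 0.604 for miR-466b-3p, from -0.42 to 0.709 for miR-669a-3p, from -0.916 to 0.751 for miR-466d-3p and from -0.817 to 1.119 for miR-467d-5p; each low end came without HTG 1. Without both libraries numbered 1, the nearly equal counts of miR-466a-3p and miR-466b-3p were at -0.636. The median of the 14 members then tested was -0.293 (smallest adjusted edgeR p 0.229). The median also turned negative with limma-voom (-0.249), with limma on TPM (-0.154), and without control 2 or control 3 (-0.085 and -0.111 over the same 13 rows, -0.092 and -0.244 over the 16 rows then tested). Without the filter it was 0.127 over the same 13 rows and -0.067 over all 49. Counting nearly identical rows once, chosen after seeing the data, gave a log2 ratio of the summed level of 0.049. The cause of these shifts was not tested. Depth limits the 36 untested rows, whose levels stayed at or under 2.58 CPM.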
